A study of Homo sapiens with 36 samples.

Results

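Transcription by RNA polymerase II ends when the nascent RNA is cleaved and the remaining RNA is degraded up to the polymerase by the 5′-3′ exonuclease XRN2, the torpedo of termination. RNAs that terminate early or are not matured are degraded from the 3′ end by the nuclear exosome, whose catalytic subunits EXOSC10 and DIS3 receive their substrates from the helicase MTREX and its adaptors ZCCHC8 (NEXT complex) and ZFC3H1 (PAXT connection). NCBP1, the large subunit of the cap-binding complex, and SRRT (ARS2) link capped RNA to these adaptors, and ZC3H4 belongs to the restrictor that limits unproductive transcription. Clusters of crosslinked RNA in transcripts of these 9 genes are described here. The genes were chosen by name, and a cluster was counted for a gene when its midpoint lay within the GENCODE 44 gene body on the same strand. All 9 genes held clusters, 450 of the 278185 clusters in all lists, and 9830 of 20046 protein-coding genes held at least 1.

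The lists came from PAR-CLIP, in which 4-thiouridine (4SU) is incorporated into RNA and crosslinked to bound proteins by light of 365 nm. HEK293 Flp-in T-Rex cells, an established human embryonic kidney line, were used as parental cells or as lines with doxycycline-inducible FLAG-SCAF4 or FLAG-SCAF8, so that the tagged proteins were expressed in addition to the cells' own. SCAF4 and SCAF8 are RNA-binding proteins that contact the C-terminal domain of RNA polymerase II and prevent early termination. All cells received 100 μM 4SU overnight, a pulse of 500 μM for 2 h and 2000 J/m2 of UV light, and the labels give 100 ng/mL doxycycline for the SCAF4 and SCAF8 lines but not for parental cells, whereas the study's methods state another dose and do not exempt the parental line. FLAG IPs of the 3 lines (SCAF4 IP, SCAF8 IP and, without a tagged protein, control IP) and RNA taken from the same extracts before the IP (SCAF4 input, SCAF8 input and parental input) each gave 3 replicates, hence 18 lists. The lists held 18287 to 54404 clusters for SCAF4 and SCAF8 IP, 1621 to 9638 for control IP and 4567 to 12493 for inputs. The number of reads behind them is unknown. One cluster was thus worth 0.184 to 0.547 per 10000 clusters in SCAF4 and SCAF8 IP, 1.04 to 6.17 in control IP and 0.800 to 2.19 in inputs, so that a gene with few clusters was more often at 0 in the short lists. The lists hold no expression levels, and a high share of clusters of a gene and a high level of its RNA cannot be told apart without the inputs.

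To show the RNA that was recovered most often and passed the removal of background, 6 windows are printed, 1 for each region that held clusters in 5 of the 6 IP lists of tagged protein and remained after the removal steps given with the regions. Of these, the MTREX region overlapped a cluster of 1 input, which the removal tolerates, and the others overlapped no background list. The windows of ZFC3H1 and EXOSC10 passed only with input density counted as merged regions, as given with those steps. They happened to fall in 6 different genes, and all lay in coding sequence. Each window is 100 nt of GRCh38 around the region's midpoint, 5′ to 3′ on the transcribed strand, with CGG and CGA in capitals.

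ZFC3H1 exon 1, chr12:71663376-71663475, minus strand: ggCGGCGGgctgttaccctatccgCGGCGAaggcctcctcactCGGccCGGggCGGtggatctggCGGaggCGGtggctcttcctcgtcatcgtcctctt
NCBP1 exon 19, chr9:97664343-97664442, plus strand: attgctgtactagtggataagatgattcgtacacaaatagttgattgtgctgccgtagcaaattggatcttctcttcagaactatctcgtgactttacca
EXOSC10 exon 9, chr1:11087458-11087557, minus strand: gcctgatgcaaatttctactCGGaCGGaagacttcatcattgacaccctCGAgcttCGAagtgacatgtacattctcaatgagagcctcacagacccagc
DIS3 exon 6, chr13:72775244-72775343, minus strand: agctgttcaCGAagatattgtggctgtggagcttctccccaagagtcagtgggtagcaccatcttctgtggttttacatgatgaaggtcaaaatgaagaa
MTREX exon 2, chr5:55322351-55322450, plus strand: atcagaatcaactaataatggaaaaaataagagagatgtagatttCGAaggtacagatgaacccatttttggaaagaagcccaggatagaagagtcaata
ZC3H4 exon 5, chr19:47090025-47090124, minus strand: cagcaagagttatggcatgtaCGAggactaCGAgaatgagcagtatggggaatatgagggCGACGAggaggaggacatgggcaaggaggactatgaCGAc

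CGG and CGA, GCAG- and CCAG-containing pentamers, and CTCC and CACC are motifs that the study derived from these same clusters, so that their presence is a description and not independent evidence. The number of CGG and CGA in the 6 windows ranged from 0 in NCBP1 to 9 in ZFC3H1. GC content ranged from 34% in MTREX, with 1 CGA, to 70% in ZFC3H1, and was 39% in NCBP1. Of the 31 regions that remained in the 9 genes, 21 held CGG or CGA in their 100 nt window, and 71.1% of all 17125 such regions of the genome did. One of the pentamers CCAGC and CCAGG or their counterparts with a first G, GCAGC and GCAGG, was present on the transcribed strand in 12 of the 31 and in 45.4% of all regions, and CTCC or CACC in 16 of the 31 and in 49.5% of all regions. Median GC content was 43% in the 31 windows and 50% in all. Before removal, the 9 genes held 81 regions with clusters of at least 2 lists. The 7 of these within the first 5 kb of their gene, a limit set after the values were seen, held 1 to 11 CGG or CGA (median 7) at a median GC content of 59%. The 74 regions further into the genes held 0 to 6 (median 1) at a median GC content of 44.5%.

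XRN2, the nuclease of the torpedo, held the most clusters of the 9 genes, 117 in all lists. SCAF4 IP contained 6, 20 and 13 clusters in replicates 1 to 3, SCAF8 IP 13, 6 and 22, and control IP 3, 0 and 0. SCAF4 input contained 6, 2 and 0, SCAF8 input 4, 5 and 3, and parental input 7, 2 and 5. Per 10000 clusters of a list this was 3.55 ± 0.350 (SD, n = 3) in SCAF4 IP, 4.58 ± 1.13 in SCAF8 IP, 3.01 ± 2.68 in SCAF4 input, 4.18 ± 0.767 in SCAF8 input and 6.61 ± 2.87 in parental input. The ranges of IP and input overlapped, and the highest value was that of a parental input list (9.84). The clusters of XRN2 lay mostly in introns, in IP as in input. In SCAF4 IP 15 of 39 midpoints were exonic, in SCAF8 IP 11 of 41 and in all inputs 5 of 34, in a gene (chr20:21303331-21389825, plus strand) of which 3.94% is exonic in the MANE transcript, the reference isoform agreed between annotation centres. The first intron, 22805 nt long, held 8 of the SCAF4 IP clusters, 9 of the SCAF8 IP clusters and 10 of the input clusters.

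ZC3H4, the zinc finger protein of the restrictor, was close to absent from the inputs. Each input list held clusters of only 19.15 to 39.96% of the genes with a cluster in any list. Few input clusters by themselves thus do not set ZC3H4 apart. SCAF4 IP contained 2, 6 and 9 clusters and SCAF8 IP 2, 3 and 7, whereas a single cluster was found among the 9 inputs, in replicate 2 of SCAF8 input, and another in replicate 1 of control IP. The shares were 1.60 ± 0.908 per 10000 in SCAF4 IP and 1.37 ± 0.503 in SCAF8 IP. All SCAF4 IP lists lay above their inputs, which were at 0, whereas the SCAF8 input list with the cluster (0.965) lay above the lowest SCAF8 IP list (0.794). The gene lies on chr19:47064187-47113776, minus strand. In SCAF8 IP 8 of its 12 clusters lay in the 3′ UTR, and in SCAF4 IP 4 of 17. This difference of position was not tested because clusters of 1 gene in different lists are not independent.

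Of the cap-associated genes, SRRT (chr7:100875103-100888664, plus strand) was densely covered and NCBP1 (chr9:97633668-97673748, plus strand) held the fewest clusters of the 9. SRRT held 7, 16 and 13 clusters in SCAF4 IP, 5, 8 and 12 in SCAF8 IP and 3, 2 and 1 in control IP. SCAF4 input held 2, 0 and 3, SCAF8 input 1, 3 and 4 and parental input 2, 0 and 0. It was the only gene of the 9 with clusters in all 3 control IP lists, where its share of 5.97 ± 2.77 per 10000 exceeded that of SCAF4 IP (3.48 ± 0.476) and SCAF8 IP (3.08 ± 1.21), although the 2 shorter control IP lists contributed only 3 clusters to it. The exonic share of SRRT clusters was 31 of 36 in SCAF4 IP, 22 of 25 in SCAF8 IP, 6 of 6 in control IP and 15 of 15 in inputs. NCBP1 held 0, 4 and 4 clusters in SCAF4 IP and 1 in each replicate of SCAF8 IP. No control IP list and 1 of 9 inputs, replicate 3 of SCAF8 input, held a cluster in it. Its 3 regions with clusters of at least 2 lists all fell in coding exons, 19, 20 and 22 of 23.

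MTREX and its adaptors had intermediate numbers. MTREX (chr5:55307989-55425579, plus strand), the helicase shared by the adaptor complexes, held 3, 6 and 4 clusters in SCAF4 IP and 1, 3 and 9 in SCAF8 IP, and none in control IP. The inputs held 5, of which 4 were in own inputs. ZCCHC8 (chr12:122471600-122500932, minus strand), the scaffold of NEXT, held 4, 13 and 8 clusters in SCAF4 IP and 3, 2 and 6 in SCAF8 IP. Its shares were 2.11 to 2.39 per 10000 in SCAF4 IP and 1.09 to 1.45 in SCAF8 IP, a difference that did not pass the test given below. Control IP held 3, 0 and 0 and the inputs 10 clusters of ZCCHC8, and parental input replicate 2 reached 4.38 per 10000, above every IP list. ZFC3H1 (chr12:71609599-71667725, minus strand), the zinc finger protein of PAXT, held 4, 11 and 7 clusters in SCAF4 IP and 3, 2 and 7 in SCAF8 IP. The SCAF4 IP shares of ZFC3H1 were 2.06 ± 0.0422 per 10000 and those of SCAF8 IP 1.32 ± 0.318, a difference likewise not past the test. In how many of all genes the lists of both proteins lie apart was not counted. Control IP held 1 cluster of ZFC3H1 and the inputs 7. ZCCHC8 also contains a small gene on the same strand, ENSG00000252192, whose RNA cannot be told apart from that of ZCCHC8.

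The nuclease genes of the exosome held few input clusters, as did NCBP1, ZC3H4 and MTREX. Each input list lacked most genes, as given with ZC3H4. EXOSC10 (chr1:11066618-11099869, minus strand) held 4, 21 and 12 clusters in SCAF4 IP and 4, 7 and 10 in SCAF8 IP. No SCAF4 input list held a cluster of EXOSC10, SCAF8 input held 2, 1 and 1, parental input 0, 0 and 1, and control IP 2, 0 and 1. The shares of EXOSC10 were 3.17 ± 0.933 per 10000 in SCAF4 IP, 2.61 ± 1.13 in SCAF8 IP, 1.42 ± 0.667 in SCAF8 input and 2.75 ± 3.14 in control IP. SCAF8 IP overlapped with its own inputs, and the highest value was that of 1 cluster in the shortest control IP list (6.17). DIS3 (chr13:72752169-72782096, minus strand) held 2, 4 and 3 clusters in SCAF4 IP and 3, 2 and 4 in SCAF8 IP, and 1 each in a SCAF8 input and a control IP list. Its shares were 0.891 ± 0.159 per 10000 in SCAF4 IP and 1.08 ± 0.114 in SCAF8 IP, and the single input cluster, worth 1.09 in its list, lay within the range of SCAF8 IP. Every SCAF4 and SCAF8 IP list held a cluster of DIS3 and of EXOSC10, as of every other of the 9 genes except NCBP1. These lists held clusters of 49.8 to 86.9% of the genes with a cluster in any list. None of the 20 clusters of DIS3 lay in the 3′ UTR. With 9 clusters each in SCAF4 IP and SCAF8 IP, a count of 0 allows a 3′ UTR share of up to 33.3% for each. Such limits, like the intervals below, cover counting error only.

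Per gene length, SRRT held the most SCAF4 and SCAF8 IP clusters, 45.0 per 10 kb, followed by EXOSC10 (17.4), ZCCHC8 (12.3) and XRN2 (9.25), and MTREX held the fewest (2.21). These levels are sums over lists of different length and have no replicate error. By number, 3.89% of genes with a cluster held as many SCAF4 and SCAF8 IP clusters as XRN2 or more, and 44.4% as many as NCBP1 or more. Per 10 kb, 23.6% of genes reached XRN2 and 3.75% reached SRRT.

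**Figure D1:**
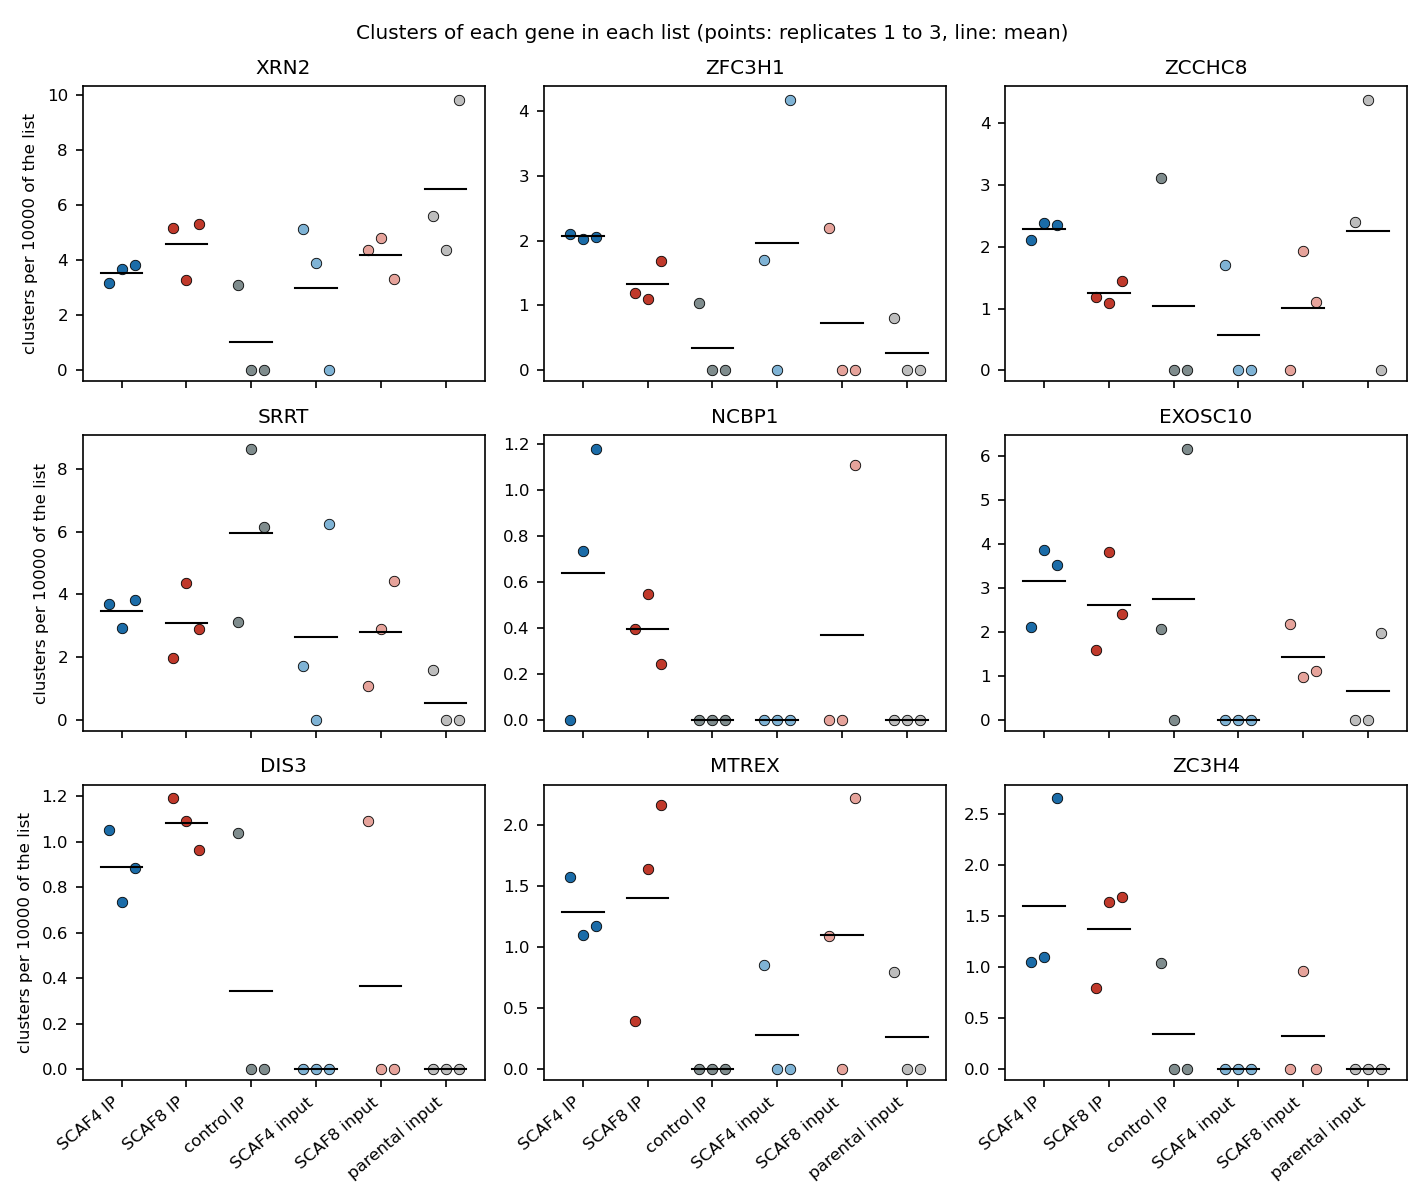
Clusters of each of the 9 genes per 10000 clusters of a list (vertical axis, scaled for each gene), for SCAF4 IP, SCAF8 IP, control IP and the 3 kinds of input. Points are replicates 1 to 3 from left to right and lines are means (n = 3). EXOSC10, DIS3, ZC3H4 and NCBP1 are at 0 in all SCAF4 input lists. These lists held clusters of only 19.72 to 39.96% of the genes with a cluster in any list. XRN2 in the inputs reaches the level of the IPs, and SRRT is highest in 1 control IP list (8.64).

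Whether the genes were enriched in the IPs was asked against the inputs of the same extracts, with limma on log2(clusters per 10000 + 1) over 7676 genes with clusters in at least 3 lists. EXOSC10 was 1.30 ± 0.19 (SE) higher in SCAF4 and SCAF8 IP than in own inputs (adjusted p = 0.00147), ZC3H4 was 1.11 ± 0.22 higher (adjusted p = 0.00518) and DIS3 was 0.81 ± 0.18 higher (adjusted p = 0.00993). For the other 6 genes the differences were 0.32 (XRN2) to 0.76 (ZCCHC8), with adjusted p from 0.0818 (ZCCHC8) to 0.539 (XRN2). Thus 3 of the 9 genes were called higher and 0 lower, while 19.9% of all genes tested were called higher and 5.8% lower, so that the count by itself sets the 9 genes little apart. The median difference was 0.58 for the 9 genes and 0.26 for all genes. This scale understates differences of low shares, and short lists pull low shares down on it, which is why the median of all genes is given. It is not matched for share. The median gene with a cluster in any list held 9 SCAF4 and SCAF8 IP clusters, and the 9 genes held 11 (NCBP1) to 80 (XRN2). On plain shares, EXOSC10 contributed 58 of 192335 IP clusters and 4 of 50137 own input clusters, a ratio of 3.78 (95% exact interval 1.40 to 14.3), and ZC3H4 29 and 1, a ratio of 7.56 (1.25 to 309). For DIS3, with 18 and 1 clusters, the ratio was 4.69 (0.741 to 195), and for XRN2, with 80 and 20, it was 1.04 (0.633 to 1.80). The 3 calls depended on replicate 3. Without replicate 3, none of the 9 genes was called, at differences of 1.23 for EXOSC10, 0.84 for ZC3H4 and 0.74 for DIS3, and 136 of all genes were called higher instead of 1530, and without replicate 2 EXOSC10 and ZC3H4 remained called and DIS3 did not. In an exact permutation test of the 12 list labels, adjusted over all genes, ZC3H4 passed (adjusted p = 0.0462) and EXOSC10 (0.0592) and DIS3 (0.0687) did not. That test ignores that each IP and input come from 1 extract, and with this pairing as a block in limma all 3 genes were called.

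Taken by protein, EXOSC10 differed from SCAF4 input by 2.03 ± 0.27 (limma, adjusted p = 0.00206), ZC3H4 by 1.33 ± 0.31 (adjusted p = 0.0161) and DIS3 by 0.92 ± 0.26 (adjusted p = 0.0338), 3 of 9 genes where 13% of all genes were called higher and 4.4% lower. Without replicate 3 none of all 7676 genes passed this comparison (limma, with 1627 at an unadjusted p below 0.05), and without replicate 2 none of the 9 did. EXOSC10 then differed by 1.96 and 1.91. These fitted values rest on inputs at 0 and are no bounds. Against the limit of 3 clusters that 0 of 21622 SCAF4 input clusters allows, the SCAF4 IP share of EXOSC10 was 2.48-fold higher (1.23-fold without replicate 1). That of ZC3H4 was 1.14-fold higher, and that of DIS3 stayed below the limit. The counting error of the IP share is not included, so that these folds are no lower bounds either. Without replicate 1 or replicate 3 the share of ZC3H4 was below the limit of the lists left. None of the 9 genes was called in SCAF8 IP against SCAF8 input, where 2.59% of all genes were called higher and 0.508% lower and EXOSC10 differed by 0.56 ± 0.27 (adjusted p = 0.286). The difference between both effects was 1.47 ± 0.39 for EXOSC10 (limma, adjusted p = 0.352), and it passed for 0 of 7676 genes, 542 of which had an unadjusted p below 0.05. A difference between SCAF4 and SCAF8 in their enrichment of EXOSC10 was therefore not established. Compared directly, SCAF4 IP and SCAF8 IP differed in none of the 9 genes, with 0.0782% of all genes called higher in SCAF4 IP and 0.0651% lower. The largest difference was that of ZCCHC8 (0.55 ± 0.42, adjusted p = 0.862), the smallest that of MTREX (0.01 ± 0.43, adjusted p = 0.997), and these errors leave room for differences of the size seen against the inputs.

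**Figure D2:**
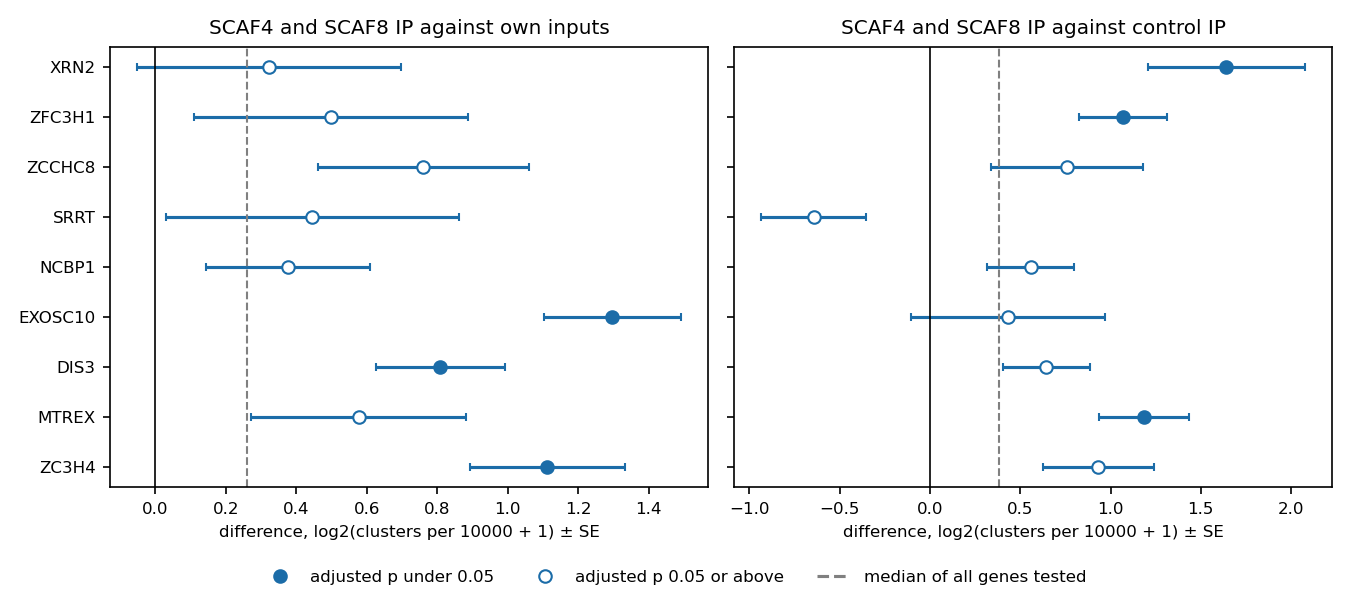
Difference of log2(clusters per 10000 + 1) between the 6 IP lists of tagged protein and the 6 own inputs (left) or the 3 control IP lists (right), with SE from limma. Filled points passed an adjusted p of 0.05 and the dashed line is the median of all genes tested (0.26 and 0.38). EXOSC10, DIS3 and ZC3H4 passed on the left, XRN2, ZFC3H1 and MTREX on the right, and SRRT lies below 0 on the right.

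Against control IP, the FLAG IP of cells without a tagged protein, XRN2 was 1.64 ± 0.43 higher (limma, adjusted p = 0.0291), MTREX 1.18 ± 0.25 (adjusted p = 0.0137) and ZFC3H1 1.07 ± 0.25 (adjusted p = 0.0179). Again 3 of the 9 genes were called higher and 0 lower, among 18.2% and 3.48% of all genes. SRRT had a difference of -0.64 ± 0.29 (adjusted p = 0.137), the only one below 0, and EXOSC10 one of 0.43 ± 0.54 (adjusted p = 0.533). The control IP lists were the shortest of the IP lists, and the calls rest on zeros in them. MTREX had 0 of 13573 control IP clusters, which allows 2.21 per 10000, more than its 1.35 per 10000 in SCAF4 and SCAF8 IP, so that no fold can be given. ZFC3H1, with 1 control IP cluster, also lay below that limit in SCAF4 and SCAF8 IP, at 1.77 per 10000. For XRN2, with 3 control IP clusters, the ratio of plain shares was 1.88 (95% exact interval 0.621 to 9.32), for EXOSC10 1.36 (0.444 to 6.81) and for SRRT 0.717 (0.311 to 2.03), so that each of these intervals included equal shares. Without replicate 2 or without replicate 3 no gene was called against control IP. Without replicate 1, whose control IP list is the longest, 7 of the 9 genes were called higher and SRRT was called lower (-0.90, limma adjusted p = 0.0309), with EXOSC10 the only one not called. In that setting 2985 of all 7676 genes were called higher and 340 lower. A permutation of the 9 list labels on plain shares called 0 genes, with 1700 of 7676 at an unadjusted p below 0.05. Its smallest possible p is 0.0119, which XRN2 and ZFC3H1 reached in this permutation at an adjusted p of 0.0980.

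Where the clusters of different lists coincided was examined by merging overlapping clusters across the 6 IP lists of tagged protein. This gave 130 regions in the 9 genes, 81 of them with clusters of at least 2 lists and 11 with clusters of all 6. Clusters of both proteins were present in 68 of the 81, and 77.9% of the 36464 regions of this kind in protein-coding genes held both. Regions were then removed when clusters from 2 or more inputs overlapped them (20 regions), when their gene reached a density of 1 merged input region per 10 kb (25 more) or when a control IP cluster overlapped them (5 more), which left 31. Of the 36464 regions in protein-coding genes, these steps removed 26.6%, 32.3% and 3.20%, and 37.9% remained. XRN2, ZCCHC8 and SRRT exceeded the limit on input density, at 1.77, 2.10 and 3.99 merged input regions per 10 kb, and lost all their regions, 9, 2 and 4 of which also overlapped 2 or more inputs. EXOSC10 stayed below the limit at 0.805 and ZFC3H1 at 0.644. The remaining 6 genes kept 9 (EXOSC10), 7 (ZFC3H1), 5 (MTREX), 5 (ZC3H4), 3 (NCBP1) and 2 (DIS3) regions. The study's methods do not say how input clusters were counted for this limit, and merged regions are an assumption. Counted as single clusters of the 9 inputs, EXOSC10 reached 1.34 and ZFC3H1 1.13 per 10 kb, both genes were lost, and 15 regions in 4 genes remained. With merged regions, 6 of 9 genes held a pooled consensus region, as did 51.9% of the 9830 genes with a cluster. By protein, 22 SCAF4 and 9 SCAF8 consensus regions (at least 2 of 3 lists, same removals) lay in these 6 genes. These counts have no test, and the SCAF4 and SCAF8 lists differed in length.

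None of the 11 regions with clusters of all 6 IP lists remained, since 8 held input clusters and 8 control IP clusters, and XRN2 and SRRT, with 2 and 4 of them, were removed as genes. Of the 16 regions in 5 lists 6 remained, of the 11 in 4 lists 2, of the 20 in 3 lists 10 and of the 23 in 2 lists 13. Among all protein-coding genes, the share that remained was 8.09% for regions of 6 lists, 23.2% for 5, 34.6% for 4, 44.5% for 3 and 52.9% for 2. All 18 control IP clusters in the 9 genes overlapped a region of at least 2 IP lists, as did 66 of the 79 input clusters. The same overlap was not counted over all genes, so that these counts do not set the 9 genes apart.

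**Figure D3:**
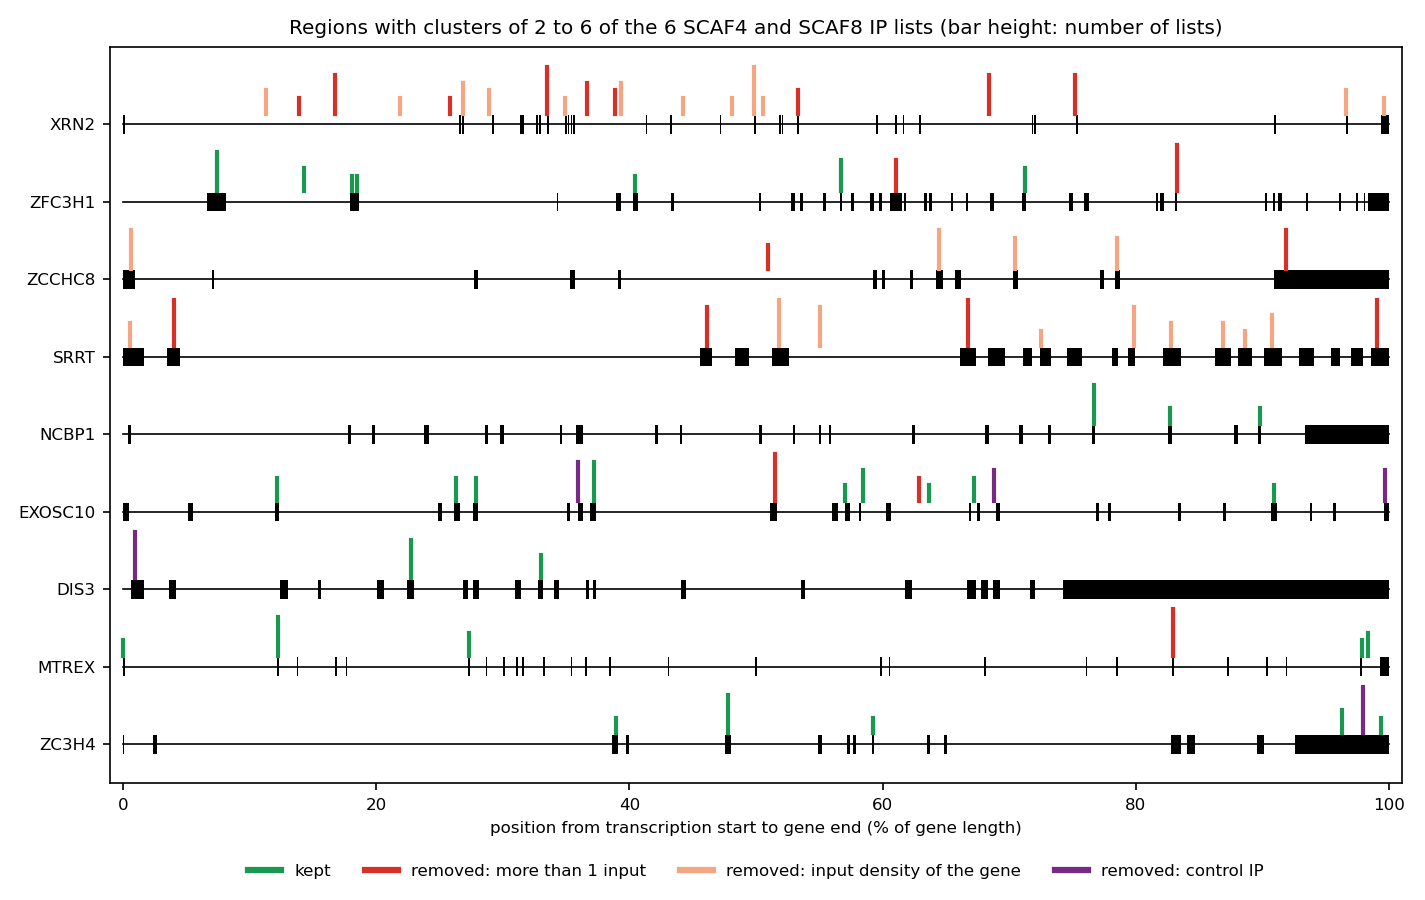
Regions with clusters of 2 to 6 IP lists of tagged protein along each gene, from transcription start (0%) to gene end (100% of gene length), with exons of the MANE transcript as boxes. The height of a bar is the number of lists and its colour what became of the region. Green bars, which remained, are found in 6 genes and none reaches 6 lists, and all bars of XRN2, ZCCHC8 and SRRT are removed.

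In XRN2, regions of all 6 lists lay over exons 9 and 17. The region of exon 17 was not in any input but overlapped a control IP cluster. Regions of 5 lists lay in introns 1, 24 and 26, each with 2 or 3 inputs, and those of 4 lists at exon 3 and in intron 13. One region of the first intron held clusters of all 3 SCAF4 IP lists and of no SCAF8 IP list, input or control IP. It is shown with the region of exon 17, because they are the XRN2 regions without an input cluster that recurred in every list of at least 1 protein.

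XRN2 intron 1, chr20:21313045-21313144, plus strand: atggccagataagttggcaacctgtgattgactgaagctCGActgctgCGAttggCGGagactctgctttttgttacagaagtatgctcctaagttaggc
XRN2 exon 17, chr20:21346399-21346498, plus strand: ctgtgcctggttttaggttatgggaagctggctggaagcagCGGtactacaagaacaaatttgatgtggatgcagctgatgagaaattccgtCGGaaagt

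CGG and CGA are again in capitals, 3 in the window of intron 1 and 2 in that of exon 17, of which the first 16 nt are intron. The region of exon 17 covered the whole exon and intron sequence on both sides. In EXOSC10, 12 of the 14 regions contained at least 1 splice site and 6 a whole exon with both of its splice sites, among the latter the region of exon 10, present in all 6 lists and 2 inputs, and that of exon 9, present in 5 lists and no background list. A region of 607 nt took in exons 15 and 16 with the introns around them in 3 lists. Another, in intron 14, held clusters of all 3 SCAF8 IP lists and of no SCAF4 IP list, and of 2 inputs. EXOSC10 regions at exon 8, at exon 17 and at the last exon, 25, overlapped a control IP cluster.

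The regions of DIS3 lay in coding sequence of exons 1, 6 and 10. That of exon 1 was found in all 6 lists and in control IP, that of exon 6 in 5 lists and that of exon 10 in 3, both without a background list. In ZFC3H1, exon 27 was covered in all 6 lists, 3 inputs and control IP, exon 1 in 5 lists over 610 nt without a background list, exons 11 and 15 in 4 lists and exon 22 in 3. In MTREX, exon 22 was covered in all 6 lists and 2 inputs, exon 2 in 5 lists and 1 input and exon 6 in 3 lists. A pair of regions near the MTREX gene end, in only 2 and 3 lists, lay in the last intron of the MANE transcript. Both also lay in the last exon of a shorter protein-coding isoform, MTREX-208. ZC3H4 had a region of all 6 lists and control IP in its 3′ UTR, with a SCAF8-only region of 3 lists and 1 input beside it, and a region of exon 5 in 5 lists without a background list. In ZCCHC8, exons 1, 9 and 14 were covered in 5 lists and exons 11 and 13 in 4, with exon 13 alone free of input and control IP clusters. SRRT had regions of all 6 lists at exons 2, 5, 6 and 20, all with 1 to 4 inputs, and its 7 regions without a background list, such as exon 16 in 4 lists, were lost only to the input density of the gene.

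By midpoint, 67.1% of the 353 clusters of the 9 genes in SCAF4 and SCAF8 IP lay in an exon of the gene's isoform with most exonic sequence. The share per list was 61.5 to 76.5%, close to 60.8 to 72.1% over all protein-coding genes in the same lists. In the inputs 45.6% of 79 clusters were exonic, against 47.6 to 69.3% per list over all genes, and XRN2 contributed 34 of the 79. An exon boundary lay inside 48.7% of the IP clusters of the 9 genes (37.1 to 58.9% per list), compared with 24.4 to 33.7% per list over all genes, and inside 26.6% of the input clusters, compared with 10.3 to 14.9%. Of the 18 control IP clusters of the 9 genes, 77.8% were exonic and 44.4% had an exon boundary inside. Over all genes these shares were 63.7 to 80.3% and 14.6 to 23.0% per control IP list. For exon boundaries the 9 genes thus lay above all genes in IP and, summed, in control IP and in input, which was not tested. A cluster across an exon boundary contains exon and intron sequence of the same genomic stretch. Exons took up 3.37% (MTREX) to 35.3% (DIS3) of the 9 genes.

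**Figure D4:**
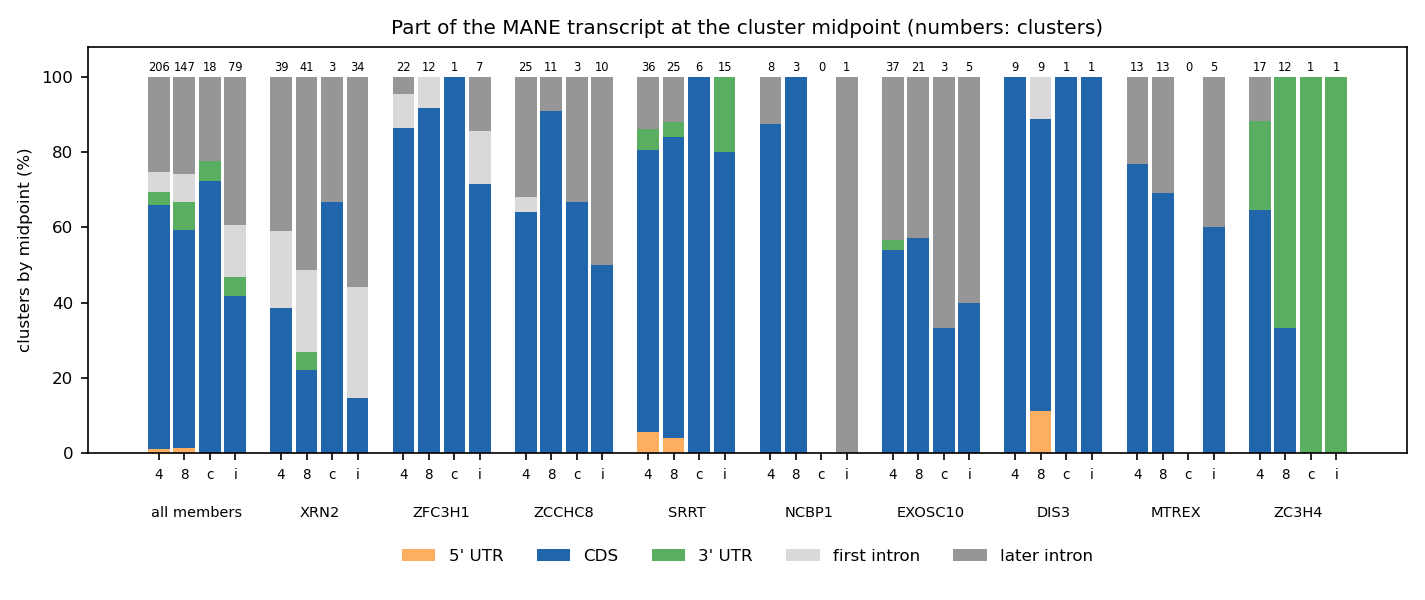
Part of the MANE transcript at the cluster midpoint (% of clusters) for SCAF4 IP (4), SCAF8 IP (8), control IP (c) and all 9 inputs (i), for the 9 genes together (all members) and for each. Numbers above the bars are clusters. XRN2 is mostly intronic in IP and input, SRRT mostly coding, and ZC3H4 is the gene with most 3′ UTR clusters, 8 of 12 in SCAF8 IP.

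**Figure D5:**
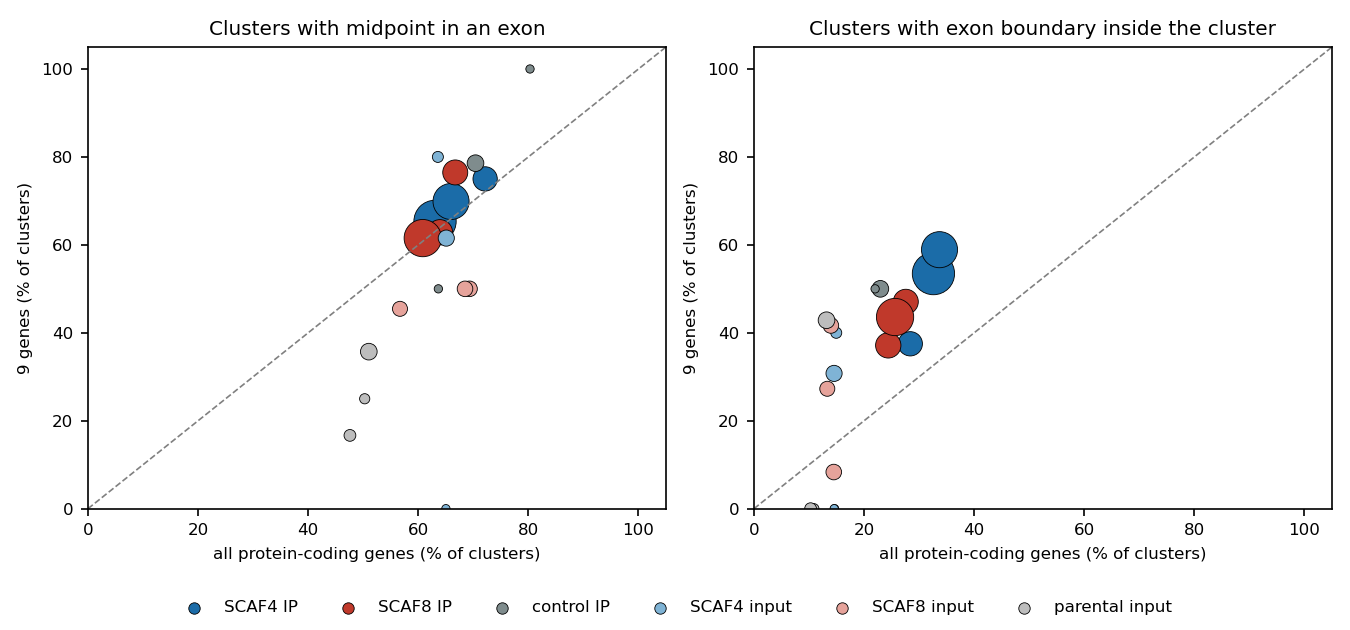
Share of clusters with the midpoint in an exon (left) and with an exon boundary inside (right), for the 9 genes (vertical axis, %) against all protein-coding genes (horizontal axis, %) in the same list. Each point is 1 list, its area grows with the clusters of the 9 genes in it, and the dashed line marks equal shares. The 6 SCAF4 and SCAF8 IP lists lie near the line on the left (61.5 to 76.5%) and all above it on the right (37.1 to 58.9%).

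Other genes of these pathways were taken from a list of 38 that includes the 9. Of the other 29, 23 were tested, and 5 were higher in SCAF4 and SCAF8 IP than in own inputs (limma) and 0 lower, at a median of 0.22, a count near the 19.9% of all genes called higher. Among them were TTF2, a termination ATPase (1.42, adjusted p = 0.00433), NCBP3, an alternative cap-binding protein (1.20, adjusted p = 0.000218), MPHOSPH6, an exosome cofactor (0.67, adjusted p = 0.00283), and EXOSC7 of the exosome core (0.49, adjusted p = 0.0499). Against control IP, where 18.2% of all genes were called higher, 7 were higher and 0 lower: ZC3H18 (1.95), RBM26 (1.61), RBM27 (1.08), NCBP2 (0.97), MPHOSPH6 (0.67), C1D (0.55) and EXOSC3 (0.53), with adjusted p from 0.00336 (ZC3H18) to 0.0299 (EXOSC3). SCAF4 IP and SCAF8 IP differed in none of the 23. The genes whose log2 shares over the 18 lists were most like those of the 3 genes with most clusters were RBM26 and DNAJC5 for XRN2 (both r = 0.923), XPO5 (r = 0.903) and BOD1L1 (r = 0.889) for EXOSC10, and ZNF331 (r = 0.745) and EIF5B (r = 0.740) for SRRT, as a description over lists that share their length.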

How the data were processed

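The authors trimmed reads (bcl2fastq 1.8, cutadapt and Trim Galore per the submitters' processing notes), aligned them to GRCh38 with Bowtie2 2.2.9, removed duplicates with Picard, combined soluble and chromatin fractions (36 libraries) and called clusters with PARalyzer. Replicate 1 was sequenced with 100 nt reads and the others with 75 nt reads. Of the deposited lists, start, end and strand of each cluster were used, taken as counted from 0, and a score without a stated meaning, used only to rank clusters of a list. The deposited lists precede the removal of background clusters, hold no reads and give no depth.

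Clusters were counted per gene body of GENCODE 44, divided by the list's number of clusters and analysed as log2(clusters per 10000 + 1) with limma 3.58.1 (R 4.3.3), on 12 lists for comparisons among SCAF4 and SCAF8 and on 9 IP lists for those with control IP, with Benjamini-Hochberg adjustment over all genes with clusters in at least 3 of 18 lists. The study calls the replicates biological, and the labels do not name separate cultures, so that p-values measure the spread between these lists. Consensus regions were rebuilt from the lists with merging at 1 nt of overlap and input density counted within the gene and 2000 nt of flanks. Fractions, 95% Clopper-Pearson intervals and the limit of 3 clusters for a count of 0 cover counting error only. Python 3.11.15, pandas 2.3.3, scipy 1.17.1 and pysam 0.24.0 were used, and the steps across genes were tested on simulated data.

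The genes, the pathway list, the motifs and the tests were chosen with earlier results of these data known. Named were the 9 genes, genes of the pathway list that passed a test (1 is not reported here), the 2 genes most like each of the 3 with most clusters, and regions of at least 3 IP lists, with those of 3 and 4 lists partly given as counts, besides 3 regions of 2 lists in NCBP1 and MTREX named after their values were seen. Each input is from the extract of its IP and thus paired with it. The correlation of deviations from group means was 0.0219 to 0.374 (median 0.148) for 6 pairs with the same number and -0.273 to 0.156 (median -0.0869) for 12 with different numbers. Alternatives concerned the pseudocount, filter, measure, score, removal steps, replicate block and left-out replicates. A variance trend, a permutation of plain shares and input density from single clusters were added after seeing the data.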

Additional observations from a re-analysis of the deposited data

Results flagged for a closer look

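Clusters outside every annotated gene were found in the 2 kb upstream of SRRT, 4 in 3 SCAF4 and SCAF8 IP lists (2 for each protein) and 0 in control IP and inputs. Upstream of NCBP1 there were 2, 1 for each protein and likewise 0 in control IP and inputs, and both extended over the annotated start of NCBP1. The gene bodies analysed above do not include them. They were singled out by a rule that required clusters of at least 2 IP lists of tagged protein and 0 in control IP and inputs. These zeros were thus fixed by the choice. The control IP lists are short, and their 0 allows 2.21 clusters per 10000. A difference from control IP or from inputs was therefore not tested. No group of lists had the 4 samples needed for a test of outlying lists, and no difference between the SCAF4 and SCAF8 effects passed for the 9 genes.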

How the results depend on the processing

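Of the alternatives with all replicates, each of EXOSC10, ZC3H4 and DIS3 remained called against own inputs except that DIS3 was lost with the higher-scoring clusters of each list (median score or more) and EXOSC10 and DIS3 under the permutations. Genes called over all 7676 numbered 1975 against own inputs. They were 702 with the higher-scoring clusters and 720 in the permutation of list labels, also with plain shares (720), a range of 153 to 2435 over left-out replicates. With the replicate block, which pairs IP and input of 1 extract, they were 1811 and the same 3 of the 9 genes were called. For SCAF4 IP against its input the range over left-out replicates was 0 to 2352. For SCAF8 IP against its input 238 genes were called, 45 with the replicate block, 31 with a variance trend and 0 to 849 over left-out replicates. Between SCAF4 and SCAF8 IP 11 genes were called, 4 and 25 with a pseudocount of 0.5 and 2, 119 and 3 with a cluster in at least 1 and 6 lists, 50 with covered nucleotides, 110 with the higher-scoring clusters, 5 with the replicate block, 55 with a variance trend and 0 to 64 over left-out replicates. Against control IP 1665 were called, 704 with the higher-scoring clusters, where none of the 9 genes passed, 0 with plain shares and 0 to 3325 over left-out replicates. The XRN2 difference against own inputs turned to -0.19 with the higher-scoring clusters and ranged from -0.22 (without replicate 3) to 0.61 over left-out replicates. Against control IP SRRT turned to 0.32 with the higher-scoring clusters, and EXOSC10 ranged from -0.49 (without replicate 2) to 1.08 over left-out replicates. The cause was not tested. The 31 pooled regions became 18 with 3 of 6 lists, 20 with the higher-scoring clusters, 53 without the removal by input density, which restores 11, 3 and 8 regions of XRN2, ZCCHC8 and SRRT, 15 with input density from single clusters and 19 to 36 over left-out replicates. The 22 SCAF4 regions became 6 with 3 of 3 lists, 36 without the removal by input density, 9 with input density from single clusters and 7 to 28 over left-out replicates. The 9 SCAF8 regions became 2 with 3 of 3 lists, 19 without the removal by input density and 14 without the removal by control IP. They became 6 with input density from single clusters and 4 to 15 over left-out replicates. The exonic share was 74.8% with any annotated isoform and 66.5 to 68.3% over left-out replicates. Reads are not in the lists, so the authors' limits on reads and conversions were not varied.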
